A study of Rattus norvegicus with 10 samples.

Results

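Reactive astrocyte genes are genes whose expression rises when astrocytes respond to injury, infection or inflammation. A list of 9 was followed here in the supraoptic nucleus of the rat hypothalamus: Gfap, Vim, Serpina3n, Lcn2, Cd44, Steap4, S1pr3, Hspb1 and Osmr. They were taken by gene name from a table of 32623 genes. Of the 9 names, 8 were found, each beside 1 Ensembl identifier, and all 8 passed the filter on low values. Serpina3n, a secreted protease inhibitor, was not found under that name, so it has no expression values here and enters only the promoter search.

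RNA sequencing had been done on tissue of 10 supraoptic nuclei, each sequenced separately, 5 labelled shControl and 5 labelled shOpn3. All came from male Sprague Dawley rats, whose age the labels do not state, and all had received an adeno-associated virus. In shControl it carried a non-targeting short hairpin RNA, and in shOpn3 a hairpin against Opn3, the gene of the light-sensitive receptor opsin 3. Each rat had received one virus on each side, and the nuclei were collected 2 weeks later with a 1 mm punch from brain sections 100 µm thick. Both groups therefore carry injection and virus, and a nucleus without them was not analysed here. The promoter that drove the hairpins and the cells that took up the virus are not given in the sources used here. The comparison asks how the knock-down samples differ from the samples with the control hairpin.

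Astrocytes fill the space around neurons, cover synapses and blood vessels, and clear potassium and glutamate. In the supraoptic nucleus their processes wrap the magnocellular neurons that make vasopressin and oxytocin, and this wrapping changes with hydration and lactation. Reactive astrocytes gain intermediate filament proteins, enlarge, and turn on genes for secreted factors and receptors. Cytokines that signal through the shared receptor gp130 and the transcription factor STAT3, and microglial signals such as interleukin 1, are known inducers. None of the 8 genes is made by astrocytes alone: Vim and Cd44, for example, are also expressed by microglia, lymphocytes, endothelium and fibroblasts.

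Each sample had between 33158341 and 39958578 reads assigned to genes, and no member had fewer than 30 reads in any sample. Values are the authors' normalized counts, which are reads divided by 1 size factor per sample. They are not divided by gene length, so levels are compared between samples and not between genes. Opn3 itself ranged from 261 to 1007 normalized counts in shControl and from 145 to 290 in shOpn3, and it fell by 1.82 in log2 units (SE 0.320; limma adjusted p = 0.00226). One shControl sample, replicate 5, stood at 261 and thus below shOpn3 replicate 1 at 290. Without that sample, all 8 genes described below were called higher by limma.

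The mean of each of the 8 genes was higher in shOpn3 than in shControl. By limma, with p-values adjusted over all 15597 genes tested and a threshold of 0.05, 7 of the 8 rose and none fell. The exception was Hspb1, whose limma adjusted p was 0.065. That fit does not pair samples of the same number. With a block for the replicate number, limma called all 8 higher, and 15.1% of all genes tested. Without the block, 18.8% of all genes tested were called, 10.4% as higher and 8.48% as lower. The median log2 fold change was 1.07 over the 8 genes and -0.02 over all genes tested. A log2 fold change of at least 1, that is a doubling, was reached by 5 of the 8 genes and by 4.18% of all genes tested. All 8 were higher in shOpn3 in the authors' deposited table at an adjusted p under 0.05, where 11.4% of the genes with an adjusted p were called higher. In bulk tissue, more cells of a type and more RNA per cell cannot be told apart.

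Sequence before the annotated start was read from RefSeq (assembly GRCr8) for the 9 listed genes, all of which had an entry. The 250 bases before the start were searched on both strands for 4 motifs of factors known to act in stress and cytokine responses. The stretches below are shown because they hold the matches of a secreted protein, a metalloreductase, a chaperone and a cytokine receptor of the list. All are written 5′ to 3′ on the gene's strand, which is the minus strand in each case, and capitals mark the matches.
Lcn2, chr3:36081951-36082030: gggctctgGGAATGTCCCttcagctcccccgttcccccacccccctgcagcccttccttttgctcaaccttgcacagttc
Steap4, chr4:27054810-27054959: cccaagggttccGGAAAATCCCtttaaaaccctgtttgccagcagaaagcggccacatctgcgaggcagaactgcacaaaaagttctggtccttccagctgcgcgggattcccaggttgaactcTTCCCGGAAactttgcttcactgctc
Hspb1, chr12:26432392-26432441: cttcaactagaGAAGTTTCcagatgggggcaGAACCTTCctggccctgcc
Osmr, chr2:57688562-57688621: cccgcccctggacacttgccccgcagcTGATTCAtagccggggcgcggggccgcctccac

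The first capitals of Steap4 and those of Lcn2 match the NF-kB motif on the opposite strand, so they read as its reverse complement. The motif is GGGRNWYYCC, where R is A or G, W is A or T, Y is C or T and N is any base. It was held by 3 of the 9 genes (Lcn2, Steap4 and Vim) and by 3.54% of 33469 promoters. The second capitals of Steap4 match the STAT motif TTCNNNGAA, held by 2 of the 9 (Steap4 and Serpina3n) and by 7.67% of promoters. The capitals of Hspb1 match the heat shock element GAANNTTC, held by Hspb1 and Serpina3n and by 7.23% of promoters. Those of Osmr match the AP-1 motif TGANTCA, held by Osmr alone of the 9 and by 6.34% of promoters. No match overlapped another. A match is a run of letters and was not tested for binding, and the motifs and stretches were chosen with the results known.

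Gfap and Vim encode the type III intermediate filament proteins of astrocytes, and Gfap protein is the usual stain for reactive astrocytes. Gfap (ENSRNOG00000002919) stood at 72133, 45021, 36305, 40318 and 78182 normalized counts in shControl replicates 1 to 5, and at 109497, 66372, 118630, 156087 and 126858 in shOpn3 replicates 1 to 5. The groups overlapped, because shOpn3 replicate 2 lay below shControl replicates 1 and 5. The means were 54392 ± 19325 and 115489 ± 32541 (SD, n = 5 each). Gfap rose by 1.10 in log2 units (SE 0.257, 95% interval 0.55 to 1.66; limma adjusted p = 0.0104), which is 2.15-fold. Its call was lost when both samples numbered 3 (log2 fold change 0.95, limma adjusted p = 0.0629) or both numbered 4 (0.89, limma adjusted p = 0.0613) were left out.

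Vim (ENSRNOG00000018087) had the smallest difference of the 8 genes. Its shControl samples held 10865, 11364, 9443, 11824 and 15348 normalized counts, and its shOpn3 samples 18153, 14831, 16781, 18751 and 17219. A single pair of samples overlapped: shOpn3 replicate 2 lay just under shControl replicate 5. The means were 11769 ± 2191 and 17147 ± 1507 (SD, n = 5 each), and Vim rose by 0.56 in log2 units (SE 0.118, 95% interval 0.30 to 0.81; limma adjusted p = 0.00631), or 1.47-fold.

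**Figure D1:**
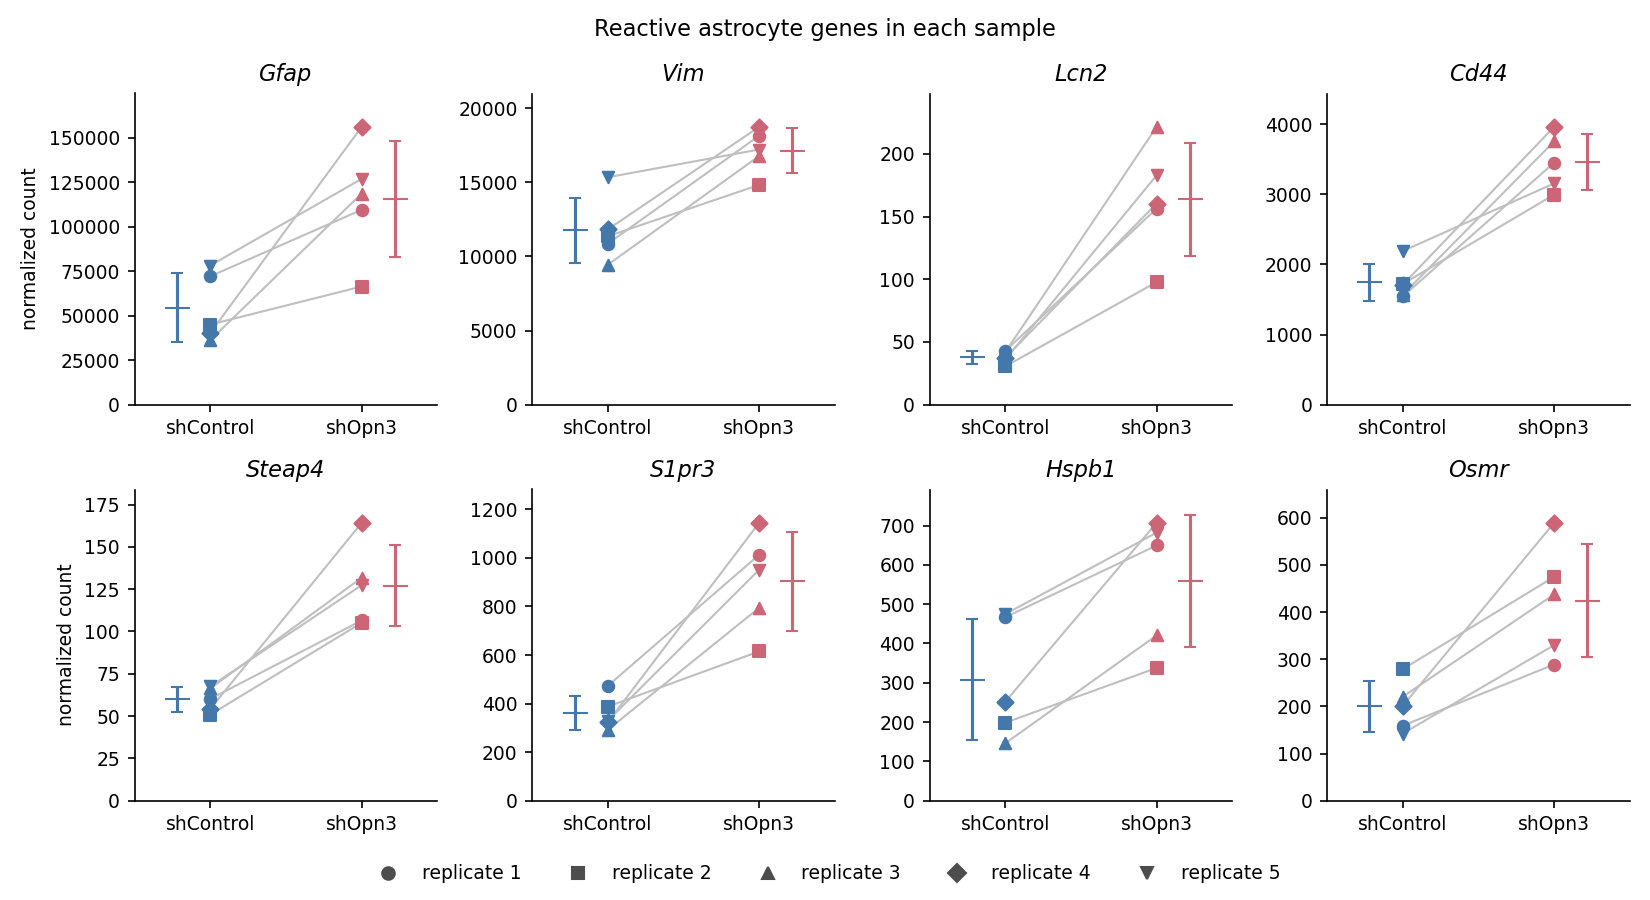
Normalized counts of the 8 genes in each of the 10 samples, 1 panel per gene, with points for the samples of shControl and shOpn3, lines that join samples of the same number, and the group mean with its SD at the side. The shOpn3 points lie above all shControl points for Lcn2, Cd44, Steap4, S1pr3 and Osmr, while the groups overlap for Gfap, Vim and Hspb1.

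Lcn2 and Steap4 belong to the handling of iron and to the acute phase response. Lcn2 encodes lipocalin 2, a secreted protein that binds the iron carriers of bacteria and that reactive astrocytes release. Lcn2 (ENSRNOG00000013973) stood at 42.8, 30.5, 41.8, 37.5 and 35.9 normalized counts in shControl and at 156, 97.7, 221, 160 and 183 in shOpn3. Every shOpn3 sample lay above every shControl sample. The means were 37.7 ± 4.95 and 164 ± 45.1 (SD, n = 5 each). Lcn2 had the largest difference of the 8 genes: it rose by 2.05 in log2 units (SE 0.206, 95% interval 1.60 to 2.50; limma adjusted p = 0.000168), or 4.14-fold, and 0.635% of all genes tested had a larger log2 fold change.

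Steap4 encodes a metalloreductase that reduces iron and copper. In shControl it stood at 60.1, 50.9, 66.3, 54.3 and 67.5 normalized counts, and in shOpn3 at 106, 105, 132, 164 and 127. The groups were separate, with means of 59.8 ± 7.28 and 127.0 ± 24.0 (SD, n = 5 each). Steap4 (ENSRNOG00000008602) rose by 1.06 in log2 units (SE 0.159, 95% interval 0.72 to 1.41; limma adjusted p = 0.000931).

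Cd44, S1pr3 and Osmr encode proteins of the cell surface. Cd44 is an adhesion receptor for hyaluronan and osteopontin. Its shControl samples held 1543, 1722, 1567, 1712 and 2191 normalized counts, and its shOpn3 samples 3452, 2995, 3755, 3963 and 3156. The groups were separate, with shControl replicate 5 the nearest to shOpn3. The means were 1747 ± 261 and 3464 ± 403 (SD, n = 5 each), and Cd44 (ENSRNOG00000006094) rose by 0.99 in log2 units (SE 0.109, 95% interval 0.75 to 1.23; limma adjusted p = 0.000275).

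S1pr3 encodes a G protein-coupled receptor for sphingosine 1-phosphate. S1pr3 (ENSRNOG00000014524) stood at 473, 388, 292, 323 and 329 normalized counts in shControl and at 1013, 615, 794, 1145 and 951 in shOpn3, with no overlap. From means of 361 ± 71.6 and 904 ± 205 (SD, n = 5 each), the rise was 1.31 in log2 units (SE 0.174, 95% interval 0.93 to 1.69; limma adjusted p = 0.000533), or 2.48-fold.

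Osmr encodes the subunit that pairs with gp130 to bind oncostatin M. Osmr (ENSRNOG00000033192) stood at 159, 279, 220, 201 and 142 normalized counts in shControl and at 289, 475, 437, 589 and 330 in shOpn3. The groups did not overlap, but shOpn3 replicate 1 at 289 lay close to shControl replicate 2 at 279. The means were 200 ± 53.9 and 424 ± 120 (SD, n = 5 each), and the rise was 1.07 in log2 units (SE 0.219, 95% interval 0.60 to 1.55; limma adjusted p = 0.00519).

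Hspb1 encodes a small heat shock protein, a chaperone that binds unfolding proteins and filaments. Hspb1 (ENSRNOG00000023546) stood at 467, 198, 146, 252 and 475 normalized counts in shControl and at 650, 338, 421, 707 and 682 in shOpn3. The groups overlapped: shControl replicates 1 and 5 lay above shOpn3 replicates 2 and 3. The means were 308 ± 154 and 559 ± 168 (SD, n = 5 each). The log2 fold change of 0.95 (SE 0.331, 95% interval 0.23 to 1.67) did not pass the test (limma adjusted p = 0.065). When the replicate number entered as a block, the same difference had an SE of 0.174 and passed it (limma adjusted p = 0.00514).

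Groups that do not overlap, with shOpn3 above, were found for 5 of the 8 genes (Lcn2, Cd44, Steap4, S1pr3 and Osmr) and for 8.03% of all genes tested. For each of these 5 the exact two-sided permutation p was 0.00794, the smallest that 5 samples against 5 can give. It was 0.0159 for Vim, 0.0238 for Gfap and 0.0556 for Hspb1, also by the exact two-sided permutation test. That test shuffles all samples freely and does not keep same-numbered samples paired, so its p is exact only for independent samples. The sign-flip test given next keeps the pairs.

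Samples of the same number were also set against each other. All 40 such comparisons, 5 for each of the 8 genes, were higher in shOpn3, with log2 differences from 0.17 (Vim, replicate 5) to 2.38 (Lcn2, replicate 3). A gene higher in all 5 was found for 8 of the 8 and for 18.7% of all genes tested. An exact two-sided sign-flip test of 5 differences cannot give a p below 0.0625, which each gene reached. With a block for the replicate number in the limma fit, 8 of the 8 genes were called higher, and so were 15.1% of all genes tested. Of the 15597 genes tested, the blocked fit called 2350 higher and 2376 lower.

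The same-numbered differences were uneven. Gfap differed by 1.71 and 1.95 on the log2 scale between the samples numbered 3 and 4, and by 0.60, 0.56 and 0.70 between those numbered 1, 2 and 5. Hspb1 had the same split, with 1.52 and 1.49 against 0.48, 0.76 and 0.52. Over the 8 genes, the median difference was 1.35 and 1.56 for numbers 3 and 4, and 0.84, 0.77 and 0.80 for numbers 1, 2 and 5. Lcn2 was more even, between 1.65 and 2.38. Whether these genes differ from one another in the size of their rise was not tested.

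**Figure D2:**
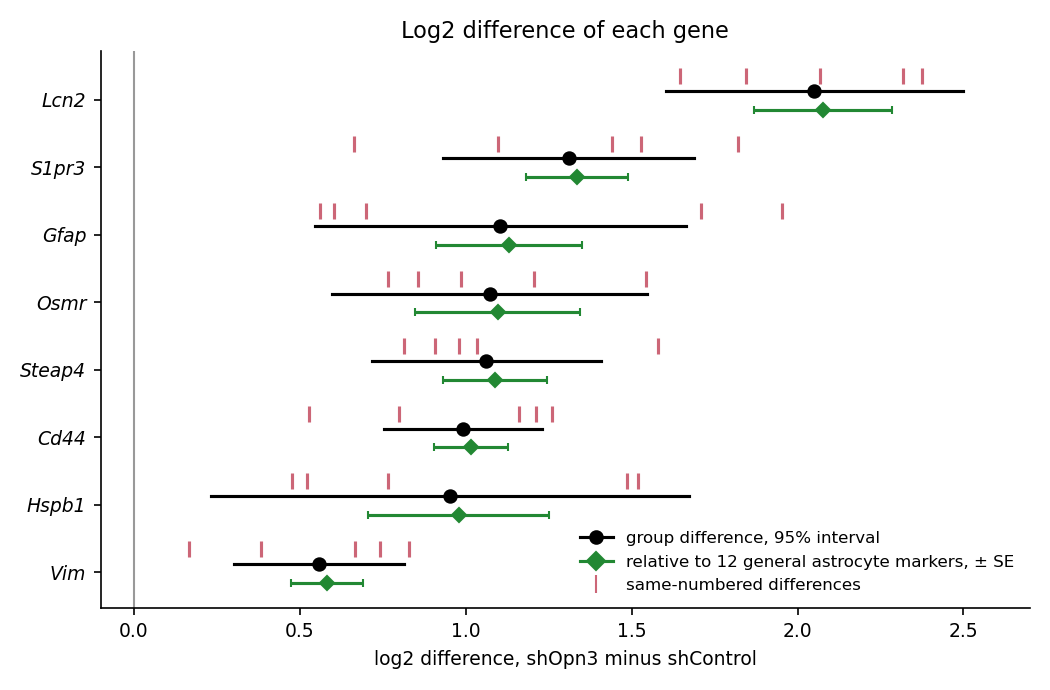
Log2 difference between shOpn3 and shControl for each gene. Black points are group differences with their 95% interval, green diamonds are the differences relative to 12 general astrocyte markers with ± 1 SE, and red ticks are the 5 differences between same-numbered samples. All ticks lie above 0, and Lcn2 lies farthest to the right.

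Within shOpn3 the same samples stood at the ends for most genes. Replicate 4 was the highest for 7 of the 8 genes, all but Lcn2, and replicate 2 was the lowest for 7 of the 8, all but Osmr. In shControl, replicate 5 was the highest for 5 genes (Gfap, Vim, Cd44, Steap4 and Hspb1), and replicate 3 was the lowest for 4. The spread within groups was widest for Hspb1 in shControl, with a coefficient of variation of 50.0%, and narrowest for Vim in shOpn3, with 8.79%. For Lcn2 it was 13.1% in shControl and 27.5% in shOpn3.

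Marker lists of other cells moved with these samples. The microglial score, the mean log2 value of 8 markers, was 11.68 in shOpn3 replicate 4 and 10.83 in shOpn3 replicate 2, the highest and the lowest of that group. The corresponding score of T and NK cells was 6.85 in replicate 4 and 5.45 in replicate 2, where replicate 1 was lowest at 5.43. Without Cd4 that score was 5.99 in replicate 4, the highest, and 4.56 in replicate 2, the lowest. The neuronal score ran the other way, with 12.68 in replicate 4, the lowest of shOpn3, and 13.34 in replicate 2, the highest. Replicate 4 was not high for immune markers alone. It was also the highest of shOpn3 for general astrocytes (13.84), monocytes and border macrophages (8.23), endothelium (11.54), mural cells (10.71) and fibroblasts (12.04). It was not the highest for oligodendrocytes, ependyma and tanycytes, or magnocellular neurons. In shControl, replicate 5 had the highest score of oligodendrocytes, 15.82 against 14.98 to 15.46 in the other samples, and the highest general astrocyte score, 13.99 against 13.65 to 13.94. It also had the highest ependymal and tanycyte score, 7.93 against 6.37 to 7.11, and the lowest neuronal score, 12.82 against 13.02 to 13.19. The part of these cells in the differences between samples was not tested.

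**Figure D3:**
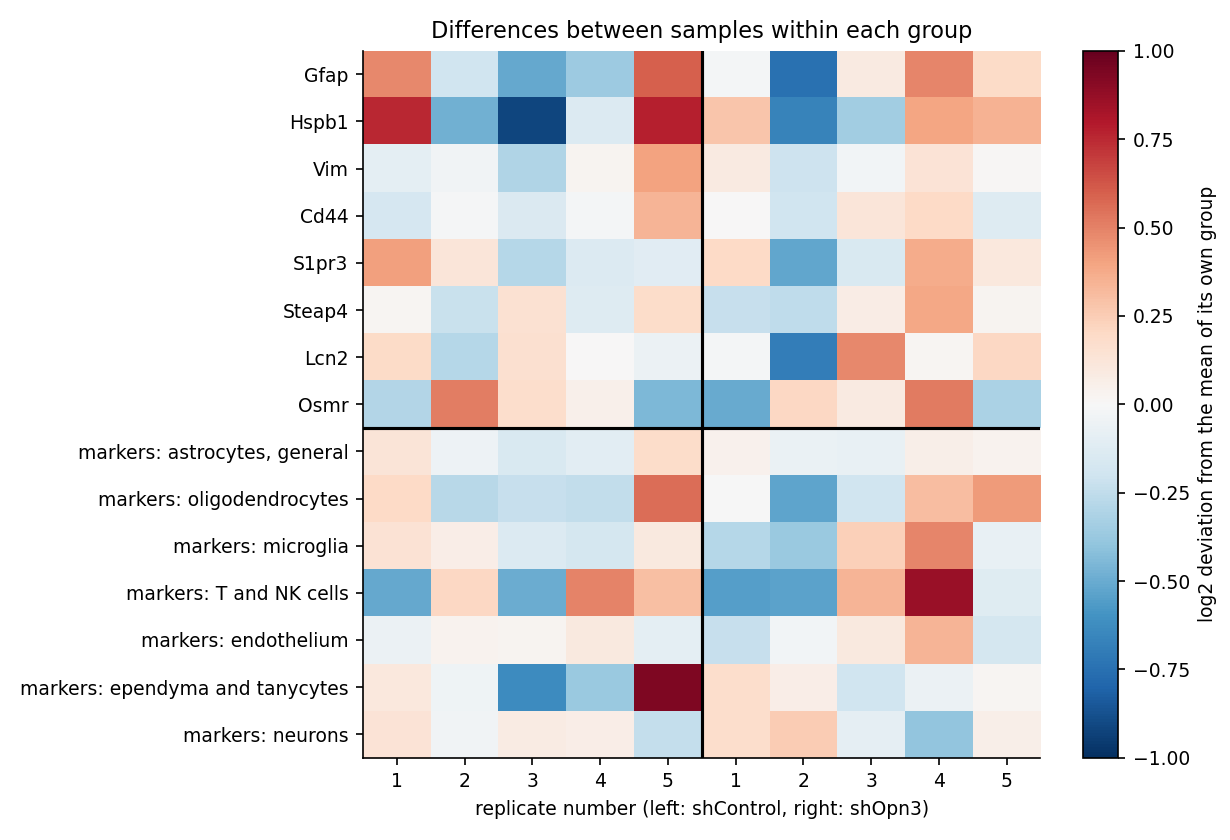
Deviation of each sample from the mean of its own group, in log2 units, for the 8 genes (upper rows) and for 7 cell type marker scores (lower rows), with shControl replicates 1 to 5 left of the vertical line and shOpn3 replicates 1 to 5 right of it. Red is above and blue below the group mean; shOpn3 replicate 2 is blue for all genes but Osmr.

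General astrocyte markers moved in both directions. Of 12 such markers, 2 rose, Aqp4 by 0.45 and Gja1 by 0.42 on the log2 scale, and 2 fell, Glul by 0.38 and Kcnj10 by 0.71. Their summed level was 367666 to 445136 normalized counts in shControl and 380181 to 433575 in shOpn3, and their mean log2 value differed by -0.03. Relative to the mean of these 12 markers in each sample, Gfap rose by 1.13 in log2 units (SE 0.220; limma adjusted p = 0.00354) and Vim by 0.58 (SE 0.109; limma adjusted p = 0.00282). On that scale the groups of Gfap and Vim no longer overlapped, while Osmr rose by 1.10 with groups that overlapped. Hspb1 passed the test at 0.98 (limma adjusted p = 0.0274). Of all 15597 genes tested, limma called 1496 higher and 910 lower on that scale. The share of all genes whose groups do not overlap on that scale was not computed.

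Markers of microglia and lymphocytes were higher in shOpn3. Of 8 microglial markers, 7 rose, with a median log2 fold change of 1.02, and their summed level was 14252 to 16622 normalized counts in shControl and 22439 to 41353 in shOpn3. Of 7 T and NK cell markers tested, 6 rose, with sums of 646 to 847 in shControl and 1572 to 4465 in shOpn3, while Gzmb had 0 reads in all samples. Most of these sums was Cd4, which rat microglia and macrophages also express, with 584 to 737 in shControl and 1427 to 4058 in shOpn3. Of the 6 markers other than Cd4, 5 rose, and their sums were 62.2 to 144 and 146 to 407 normalized counts. Of 7 markers of monocytes and border macrophages, 2 rose (Plac8 and Mrc1), with sums of 1532 to 2276 and 2117 to 5060. Their part in the rise of the reactive genes was not tested.

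Markers of further cell types, several of which also express Vim, Cd44 or S1pr3, followed no single direction. None of 6 endothelial, 8 mural or 7 fibroblast and meningeal markers was called in either direction. With the replicate block 1 endothelial marker was called higher (Slco1a4, log2 fold change 0.17, limma adjusted p = 0.0442) and 1 mural marker lower (Notch3, -0.33, limma adjusted p = 0.0398). Sums of these lists ranged from 15116 to 18753 and from 13800 to 21182 for endothelium, from 19920 to 26164 and from 15554 to 23176 for mural cells, and from 28201 to 35317 and from 29705 to 39171 for fibroblasts, in shControl and shOpn3. Of 5 ependymal and tanycyte markers tested, 1 rose (Crym; 2 with the replicate block), with sums of 2229 to 4207 and 3134 to 3884, and Col23a1 had 0 reads. All 8 oligodendrocyte markers fell, with a median log2 fold change of -1.27, from sums of 731349 to 1246220 to sums of 249044 to 470895. Of 8 general neuronal markers, 1 rose (Rbfox3 by 0.62) and 2 fell (Elavl4 by 0.57 and Uchl1 by 0.49), and with the replicate block 1 was called higher and 3 lower. Their sums were 82909 to 113252 and 83219 to 136417. Avp and Oxt, the hormones that define magnocellular neurons, were detected in every sample and both fell. Whether any of these cells contributed to the values of the 8 genes was not tested.

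Further genes of the reactive state were read from lists made by role, with the 8 genes left out. Over all genes tested, 10.4% were called higher and 8.48% lower. With the replicate block, 2350 of 15597 were called higher and 2376 lower. Several of the list counts below lie near these shares. Of 4 other pan-reactive genes, 3 rose and none fell. Cxcl10, a chemokine that draws T cells, rose from 44.5 ± 24.0 to 889 ± 524 normalized counts (SD over 5 samples each; a log2 difference of 4.27 with an SE of 0.418, limma adjusted p = 0.000151). Timp1, an inhibitor of matrix proteases, rose from 425 ± 97.8 to 1651 ± 429 (a log2 difference of 1.95 with an SE of 0.198, limma adjusted p = 0.000168). The ferroxidase gene Cp rose by 0.92 (limma adjusted p = 0.000653). Aspg had a log2 fold change of 0.77 that did not pass the test (limma adjusted p = 0.249) and did with the replicate block (limma adjusted p = 0.026).

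Of 9 genes known to be induced in astrocytes by inflammation, 5 rose and none fell, with a median log2 fold change of 0.93. C3, the central complement component, rose from 2940 ± 675 to 26735 ± 14723 normalized counts (SD over 5 samples each; 7.98-fold from the log2 values, 95% interval 4.62 to 13.8, limma adjusted p = 0.000367). The interferon-induced GTPase gene Gbp2 rose by 2.20 and the immunoproteasome gene Psmb8 by 1.32 on the log2 scale. Microglia and lymphocytes express several of these genes too. Of 12 genes known to be induced by ischaemia, 6 rose and none fell, with a median of 0.66, among them Ptx3 with 1.72, the cytokine gene Clcf1 with 1.41 and Cd109 with 0.88. The call of Clcf1 was lost in 9 of 25 alternative settings. In both lists the highest expressed gene not called is given by rule: Fkbp5 had 0.26 (limma adjusted p = 0.0657, and 0.0246 with the replicate block, which calls it higher) and Tm4sf1 had 0.02 (limma adjusted p = 0.941).

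Osmr belongs to the gp130 receptor family. Of 11 further ligands and receptors of that family tested, 4 rose (Lif, Clcf1, Il6r and Cntf) and none fell. With the replicate block 6 were called higher and 2 lower, while over all 15597 genes tested it called 2350 higher and 2376 lower. Lif, a ligand of gp130, rose from 18.0 ± 6.48 to 54.3 ± 14.6 normalized counts (SD over 5 samples each; a log2 difference of 1.59 with an SE of 0.295, limma adjusted p = 0.00305), and the interleukin 6 receptor gene Il6r rose by 0.91 (limma adjusted p = 0.000695). Osm, the ligand of Osmr, named here for that role after its values were seen, stood at 9.57 ± 5.98 and 19.3 ± 5.28 (SD, n = 5 each). Its log2 fold change of 1.07 did not pass the test (limma adjusted p = 0.0577) and did with the replicate block (limma adjusted p = 0.0398). Il6st, the gene of gp130 itself, had 0.15 (limma adjusted p = 0.361). Il6 was below the filter, with 0 to 2.11 normalized counts in shControl and 6.16 to 38.2 in shOpn3.

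Downstream of these receptors, 5 of 9 genes of the STAT3 pathway rose and 1, Ptpn11, fell. Socs3, the feedback inhibitor that STAT3 induces, rose from 15.1 to 39.1 normalized counts in the mean (a log2 difference of 1.31 with an SE of 0.290, limma adjusted p = 0.00802). The phosphatase gene Ptpn6, abundant in blood-derived cells and microglia, rose by 1.26. Stat3 itself rose by 0.36 (SE 0.0953; limma adjusted p = 0.0206). The kinase gene Jak1 had 0.17 (limma adjusted p = 0.246).

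Of 14 genes of inflammatory inducers tested, covering interleukin 1, tumor necrosis factor, complement C1q, TGF-beta and NF-kB, 11 rose and none fell. Il1b rose from 50.3 to 194 normalized counts in the mean (a log2 difference of 1.86 with an SE of 0.325, limma adjusted p = 0.00216). C1qb and C1qa, made mainly by microglia in the brain, rose by 1.46 and 1.39. Il1r1, the interleukin 1 receptor gene, had 0.28, which did not pass the test (limma adjusted p = 0.244) and did with the replicate block (limma adjusted p = 0.00905). Tnf had 0 reads in all 10 samples, and a count of 0 allows up to 3 reads per sample. Whether reads could be assigned to Tnf with the annotation used was not tested.

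The closest relatives and partners of the 8 genes were more mixed. Over all genes tested, 10.4% were called higher and 8.48% lower. Several of the counts in these short lists lie near those shares. None of the 6 other intermediate filament and linker genes passed the test, and with the replicate block 1 was called higher and 1 lower. The one called higher, Synm, had a log2 fold change of 0.41 (limma adjusted p = 0.0623, and 0.0146 with the block). Nes, which encodes nestin, had 0.02.

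In the sphingosine 1-phosphate axis, S1pr3 rose while S1pr5, a receptor of oligodendrocytes and NK cells, fell by 1.43 in log2 units (SE 0.203; limma adjusted p = 0.000752), from 2139 to 794 normalized counts in the mean. Of the 9 genes other than S1pr3, 1 rose, the lyase gene Sgpl1 by 0.46, and 2 fell, S1pr5 and the exporter gene Spns2. S1pr1, the highest of those not called, had -0.15 (limma adjusted p = 0.253).

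Among 10 other heat shock genes tested, 1 rose and 1 fell, near the 10.4% called higher and 8.48% called lower over all genes tested. Hspa1b, an inducible chaperone, rose by 1.06 (limma adjusted p = 0.0427), a call lost in 12 of 25 alternative settings. Cryab, a small heat shock protein abundant in oligodendrocytes, fell by 0.98 (limma adjusted p = 0.0251), a call lost in 5 of 26. Hsp90aa1 had -0.17 (limma adjusted p = 0.228).

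Around Steap4 and Lcn2, 2 of 9 other genes of iron handling, the STEAP family and lipocalin receptors rose and 2 fell. Steap1 rose by 1.17 (limma adjusted p = 0.0169) and the haem oxygenase gene Hmox1 by 1.07 (limma adjusted p = 0.0198). These calls were lost in 2 of 25 and 3 of 26 alternative settings. Tf, the transferrin gene, which oligodendrocytes express strongly, fell by 0.92 (limma adjusted p = 0.0147), and the ferritin gene Fth1 had -0.00 (limma adjusted p = 0.986).

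Of 9 ligands and partners of Cd44, 2 rose and 1 fell, and with the replicate block 3 were called higher and 2 lower. Spp1, the gene of osteopontin, rose from 166 to 3515 normalized counts in the mean (a log2 difference of 4.34 with an SE of 0.308, limma adjusted p = 2.22e-05). Has2, a hyaluronan synthase gene, rose by 0.63 (limma adjusted p = 0.0153) and the linker gene Rdx fell by 0.23 (limma adjusted p = 0.0329). Their calls were lost in 4 and 13 of 26 alternative settings. Of the serpins and proteases listed by name around Serpina3n, 1 passed the filter, Serpina1, which had 0.10 (limma adjusted p = 0.758). The table also holds 2 relatives of Serpina3n under LOC names, outside that list and named after their values were seen. Of these, LOC299282 (Serpina3l in RefSeq) rose by 2.61 on the log2 scale (limma adjusted p = 0.00209), and LOC299277 (Serpina3j) had 1.26 (limma adjusted p = 0.269).

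**Figure D4:**
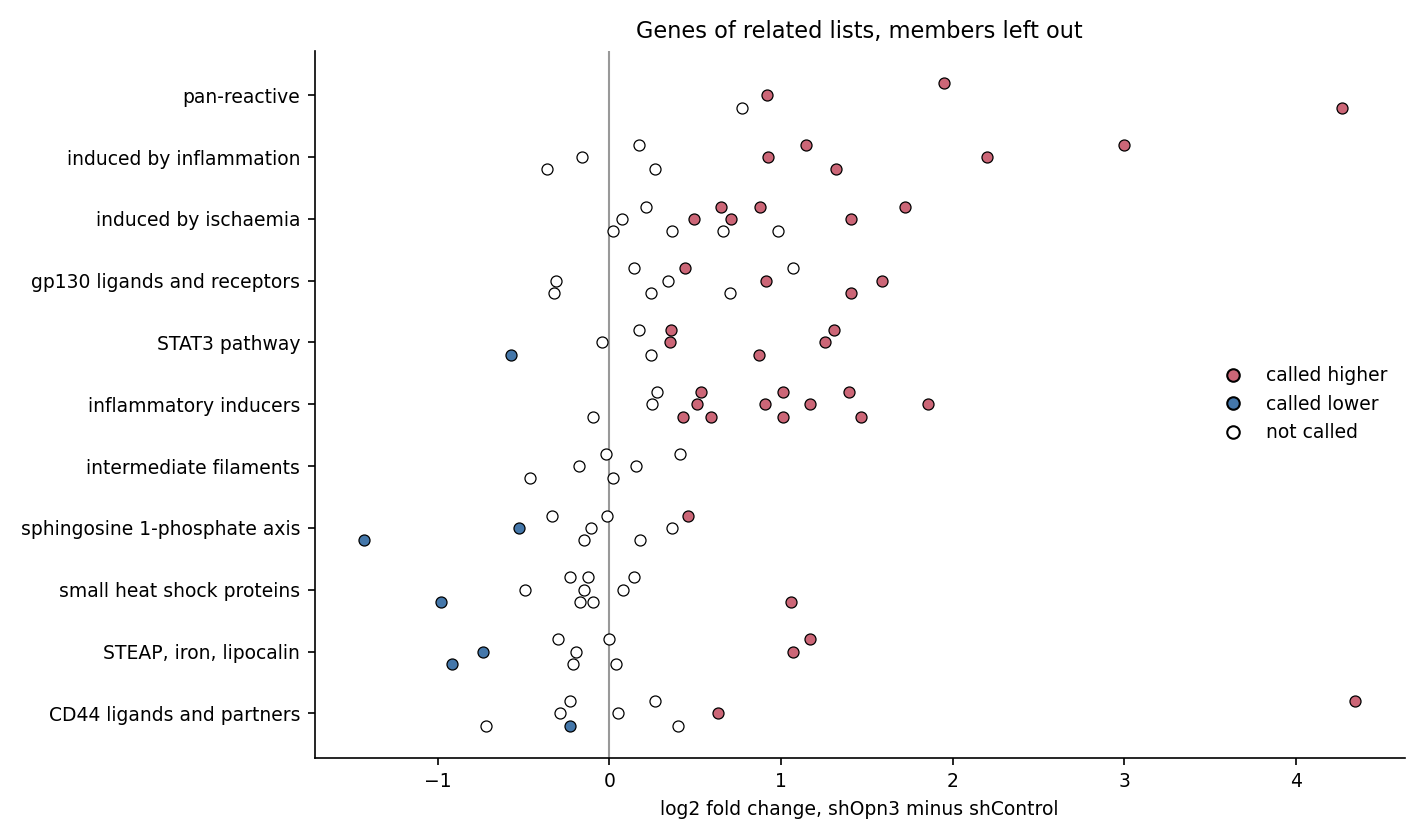
Log2 fold change of each tested gene in 11 lists related to the 8 genes, which are left out, with red for genes called higher in shOpn3, blue for genes called lower and white for genes not called by limma at an adjusted p of 0.05. The upper 6 lists hold 1 gene called lower, and the lower 5 lists hold 6.

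For each of the 8 genes, the gene whose deviations from the group means were most like its own over the 10 samples was sought among at least 11805 genes with a symbol and a mean of at least 100. These were Arhgap45 for Gfap (Pearson r = 0.99), Sel1l3 for Vim (0.94), Myo19 for Lcn2 (0.90), Eif3f for Cd44 (0.96), Prcp for Steap4 (0.95), Det1 for S1pr3 (0.96), Lman2 for Hspb1 (0.99) and Sgms2 for Osmr (0.98). Each value is the highest over all candidates in 10 samples that share their libraries and is a description. Of the 8 similar genes, Sel1l3 also rose between the groups, by 0.79 on the log2 scale (limma adjusted p = 0.00109), while Arhgap45 had 0.87 (limma adjusted p = 0.0519) and the others lay between -0.16 and 0.07.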

How the data were processed

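RNA from tissue punches of 10 individual supraoptic nuclei was sequenced, and 1 table was deposited for the series. Per the submitters' processing notes, FastQC, STAR, featureCounts and DESeq2 were used. Their versions, the genome build, the annotation and the strand setting are not given in the sources used here, so reads of overlapping or near-identical genes may be split or shared. The values are a signal, namely read counts that the authors divided by 1 size factor per sample (0.942 to 1.07). Whole reads were recovered for 100% of values in each sample (tolerance 1e-04). Per the file headers, the authors' comparison in the table gives a log2 fold change with its standard error, the score of a Wald test, and its p-value before and after adjustment. Refitting the recovered reads with DESeq2 (version 1.42.0) gave values that differed from those fold changes and adjusted p-values by more than 1e-04 for 0 genes.

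Values were taken as log2(normalized count + 1), which understates the change of low genes. Genes with a mean of at least 10 were compared with limma (version 3.58.1, R 4.3.3; lmFit, eBayes with a trend), with the group as the only term, two-sided tests and Benjamini-Hochberg adjustment over 15597 genes. The SE is limma's. Alternatives were other pseudocounts, filters and normalizations, edgeR (version 4.0.16), DESeq2, voom weights, a scale set by astrocyte markers, the replicate block and samples left out. The limma step was also run on simulated counts, drawn independently for each sample with the same spread setting for every gene. That run checks the code and not how the fit performs with the spread and pairing of these samples.

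Replicate numbers are those of the labels, which do not say that a number marks a rat. Same-numbered samples deviated together across genes (r of 0.12 to 0.44 in 5 pairs; different numbers -0.45 to 0.36, median -0.21), so the numbers were taken to pair the samples. The r of the samples numbered 4, 0.12, lies within the range of different numbers. Deviations were taken from each group's mean, which pushes r of different numbers down where r of same numbers is positive. The median of -0.21 is therefore not an independent baseline. The main limma fit and the permutation test do not use this pairing, while the replicate block and the sign-flip test do. The p-value of the main limma fit sets the group difference against the spread between samples within the groups. With the replicate block it is set against the spread of the same-numbered differences. Beside the 8 genes and Opn3, the text names from each related list up to 3 called genes with the largest absolute log2 fold change and the highest expressed gene not called. A gene that this rule names is not reported here. It also names the gene most similar to each of the 8. Other names were chosen after their values were seen. Members and lists were chosen with earlier results of these data known.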

Additional observations from a re-analysis of the deposited data

Results flagged for a closer look

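In 6 of 98 group values (49 named genes in 2 groups), the highest or lowest of the 5 samples stood apart by more than 0.71 of the group's range. Chance would give about 4.9 of 98, or 1 in 20. Among the reactive astrocyte genes this concerns Cd44, with 2191 normalized counts in shControl replicate 5 where the next sample held 1722. That sample was also the lowest shControl sample for Opn3. Fth1 stood apart in 2 samples, at 101325 in shControl replicate 5 (next 75229) and at 59408 in shOpn3 replicate 2 (next 78299). Cd109 held 178 in shOpn3 replicate 2 (next 248). Fkbp5 held 1210 in shControl replicate 2 (next 1107), and S1pr1 held 4604 in shControl replicate 4 (next 4051).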

How the results depend on the processing

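Each of the 8 genes was recomputed under 26 alternatives. Of 208 values, 197 had the same sign and the same call as the main value, 2 lost the call (Gfap, given above), 9 gained it (Hspb1) and 0 changed sign. The number called was 7 and ranged from 6 to 8, also when samples were left out. Hspb1 ranged from 0.72 to 1.31 on the log2 scale, with adjusted p from 0.00128 to 0.214. It was called with the replicate block by limma and edgeR, with DESeq2, voom weights, quantile normalization or the astrocyte scale, or without shControl replicate 1, shControl replicate 5 or shOpn3 replicate 2. The replicate block ended no call among the 8 genes. Over all genes, 2940 were called (1618 higher, 1322 lower). With the replicate block the number was 4726 by limma and 4777 by edgeR, with voom weights it was 5085, and with samples left out it was 1603 (without both numbered 3) to 3057. It was 1878 without both numbered 2. Of 1060 values of 41 other named genes, 48 lost the call, 21 gained it and 0 changed sign. Short lists moved most: the gp130 family from 4 called genes to between 2 and 8, Cd44 partners from 3 to between 1 and 6, heat shock genes from 2 to between 0 and 4, other intermediate filament genes from 0 to at most 2, the sphingosine axis from 3 to 5 (voom weights), and iron genes from 4 to 2 (without both numbered 3). The cause was not tested. The lowest value of the 8 genes was 30 reads, and the effect of depth was not tested.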

Other observations

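Serpina3n has close relatives in the rat. RefSeq lists 7 genes whose symbol begins with Serpina3, and 2 of them had a tested row under a LOC name that carries the RefSeq gene ID. LOC299282 (ENSRNOG00000010478), which RefSeq calls Serpina3l, had 5, 2, 2, 16 and 3 reads in shControl replicates 1 to 5 and 23, 18, 40, 38 and 45 in shOpn3. The groups did not overlap, and the log2 fold change was 2.61 (SE 0.452; limma adjusted p = 0.00209). LOC299277 (ENSRNOG00000037743), which RefSeq calls Serpina3j, had 1 to 10 reads in shControl and 1 to 36 in shOpn3, with a log2 fold change of 1.26 that did not pass the test (SE 0.737; limma adjusted p = 0.269). Both stand in the table outside the lists used above and were chosen after their values were seen, and reads of near-identical copies may be split between them.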
